A study of Mus musculus with 2 samples.

Results

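Proliferating beta cells are insulin-producing islet cells caught in the cell cycle, and in these data they were 50 of 8598 beta cells. They were chosen from their own RNA in 2 droplet libraries of mouse islet cells. A barcode (the tag of 1 droplet, here called a cell) counted as a beta cell with at least 500 genes, at least 5000 UMIs (tags that count captured RNA molecules one by one) and at most 20% of its UMIs from mitochondrially encoded genes. Ins1 and Ins2, the insulin genes, had to hold at least 15% of its UMIs together, and Gcg, Sst and Ppy, the other islet hormones, had to hold under 2% each. A beta cell counted as proliferating when Mki67, Top2a, Cdk1, Birc5, Ccnb1, Ube2c, Cenpf and Hmmr summed to at least 8 UMIs. Saline contributed 37 such cells and CDS 13. The comparison cells, called resting below, were the 5040 saline and 3460 CDS beta cells whose sum was 0 or 1, and 48 beta cells had a sum between these limits.

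Both libraries came from mice that the labels call DIO, which received saline or 10 mg/kg of CDS for 2 weeks before their islets were freed with collagenase and picked by hand. All groups therefore share the DIO state, and no group without it was analysed here. The series title names a blocker of the alpha2A-adrenergic receptor that acts outside the brain, but the labels do not say what CDS is. Each group has 1 library, and the sources used here do not give the number, strain or age of the mice behind it. Differences between the libraries therefore have no replicate error, and no p-values are given. Intervals are exact 95% intervals of the counts and cover counting error only.

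Adult beta cells divide rarely, and most of them rest outside the cycle. Entry needs D-type cyclins with Cdk4 or Cdk6, which inactivate the retinoblastoma proteins and free E2F factors to switch on the genes of DNA replication. Later the MuvB complex with B-Myb and FoxM1 switches on the genes of G2 and mitosis, while CDK inhibitors such as p21 (Cdkn1a) hold the cycle back. The 8 genes of the selection belong mostly to G2 and mitosis, so cells in early S phase can be missed by it.

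The deposited matrices held 124343325 UMIs in 12453 saline barcodes and 141191447 in 7268 CDS barcodes, with a median of 9094 and 16945 UMIs per barcode. The labelled cell type, islet b cell, held for the cells studied by their insulin RNA, which the selection itself required. In the proliferating cells, insulin took 15.4 to 48.3% of UMIs in saline (median 28.7%) and 15.8 to 55.0% in CDS (median 32.7%), against medians of 34.4% and 40.1% in resting cells. They were deep cells, with a median of 24082 UMIs in saline and 37704 in CDS, against 16172 and 28844 in resting cells. After thinning to 5000 UMIs they still showed medians of 2111 and 1990 genes, against 1939 and 1693.5 in resting cells. The libraries shared 25 barcode strings, none of them among the proliferating cells.

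Some proliferating barcodes held RNA of immune cells. In saline, 7 of 37 had at least 20 UMIs over 25 macrophage, T cell and B cell markers, with 49 to 258 UMIs each (median 77), while the next barcode had 3. In CDS none of 13 did, and among resting cells the counts were 14 of 5040 and 19 of 3460. The 7 barcodes held 6 to 101 macrophage, 0 to 157 B cell and 0 to 29 T cell marker UMIs, and 2 of them were among the 3 saline barcodes that Scrublet called doublets. Over the saline proliferating cells, macrophage markers summed to 333 CPM (a share of all UMIs, scaled to a fixed total), against 31.9 CPM without the 7 barcodes and 44.1 CPM in resting cells. B cell markers summed to 456 CPM, against 5.31 CPM without the 7 barcodes. Without them, 4 of 10 macrophage, 5 of 8 T cell and 4 of 7 B cell markers were at 0. In CDS, 7 of 10, 8 of 8 and 5 of 7 were at 0. Cycling RNA was also present in immune barcodes themselves: 69 of 487 saline immune barcodes (14.2%) and 9 of 216 CDS ones (4.17%) reached a sum of 8. Among alpha barcodes, 1 of 841 in saline and 0 of 930 in CDS did, where a count of 0 allows a share of up to 0.396% by the exact interval. The part of mixed barcodes in the results below was not tested, and values without the 7 barcodes are given where they move.

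Cells of 1 library also differed in single genes. One saline proliferating cell held 764 Ppy, 802 Pyy and 382 Gcg UMIs, between 63.4% and 78.9% of each gene's UMIs over the 37 cells. One CDS cell, with 64264 UMIs, held 468 of the Cdkn1a UMIs, 68.1% of that gene's UMIs over the 13 cells. Endothelial and stromal markers were few, with 17 and 14 UMIs over the saline cells and 11 and 1 over the CDS cells. Of them, 2 of 8 endothelial and 5 of 7 stromal markers were at 0 in saline, and 3 of 8 and 6 of 7 in CDS. Ductal markers, which include keratins that other epithelial cells express, held 989 CPM in saline and 836 CPM in CDS, against 784 and 836 CPM in resting cells. Of these, 1 of 6 was at 0 in each library. One saline barcode of 23966 UMIs, which Scrublet called a doublet, held 215 UMIs of the ductal marker Spp1 (79.9% of that gene's). The same barcode held all 14 stromal UMIs of the saline cells, so both saline sums rest in part on it. In CDS, 1 cell held 50 Spp1 UMIs (82.0%).

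Proliferating cells were 0.724% of saline beta cells (exact interval 0.511 to 0.997%) and 0.372% of CDS beta cells (0.198 to 0.636%). The intervals overlap, and with 1 library a group the difference between treatments could not be tested. Without barcodes of 20 or more immune UMIs the shares were 0.590% (30 of 5085) and 0.375% (13 of 3470). With every beta cell thinned to 5000 UMIs and the same limit of 8, they were 0.392% (20 cells, 0.239 to 0.604%) and 0.258% (9 cells, 0.118 to 0.489%). Over all limits and filters run, the share lay between 0.392 and 0.881% in saline and between 0.251 and 0.516% in CDS, with saline the higher under each. These settings reuse the same cells, so they are no separate support for each other. None of them combined thinning with leaving out barcodes with immune RNA.

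The sum was spread widely among the chosen cells. It ran from 8 through a median of 47 to 163 UMIs in saline, and from 9 through 71 to 193 in CDS. Most cells lay well inside the limit: 32 of 37 and 11 of 13 had at least 16 UMIs. Just inside, the saline sums were 8, 9, 9, 11 and 15 and the CDS sums 9 and 13. Just outside, saline cells had 4 (4 cells), 5 (2 cells) and 7 (2 cells), and CDS cells 5, 6 and 7 (1 cell each).

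**Figure D1:**
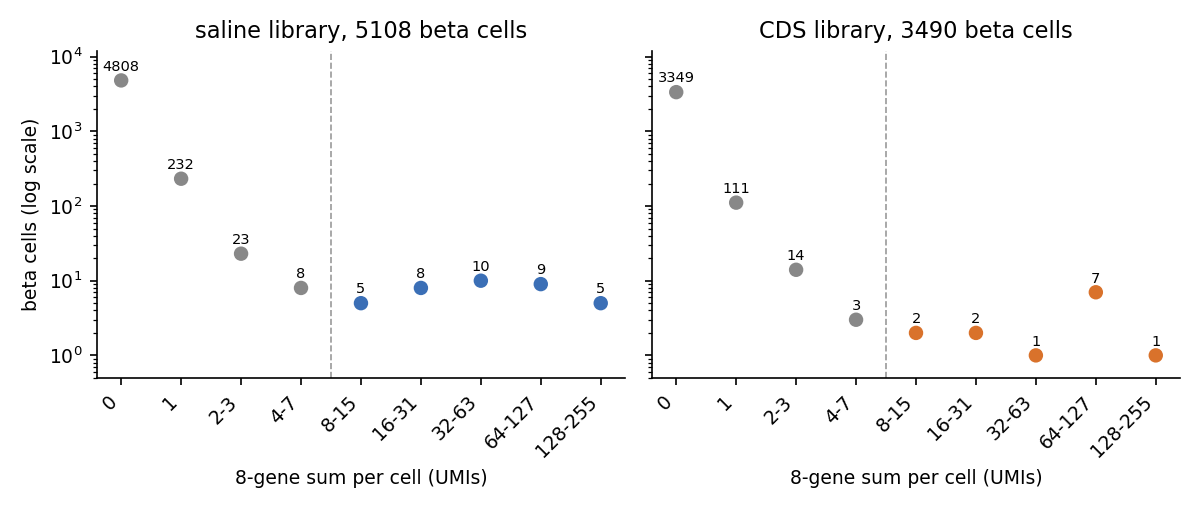
Number of beta cells (vertical axis, logarithmic) in bins of the summed UMIs of the 8 cell cycle genes (horizontal axis), with 1 panel per library, 1 point per bin and a dashed line at the limit of 8 UMIs. Counts drop from 4808 and 3349 cells at a sum of 0 to 8 and 3 cells at 4 to 7, and 10 and 1 cells lie at 32 to 63.

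Values of the 8 genes describe the selection and support nothing else. Mki67, the proliferation marker that coats mitotic chromosomes, had 1 to 34 UMIs per saline cell (median 10) and 0 to 21 per CDS cell (median 6). Every saline cell and 11 of 13 CDS cells held it, against 45 UMIs over all 5040 saline resting cells and 17 over the 3460 CDS ones. Top2a, the topoisomerase that untangles replicated DNA, had 0 to 45 UMIs in saline (median 15) and 0 to 42 in CDS (median 17). Ube2c, a ubiquitin-conjugating enzyme of the anaphase-promoting complex, had 0 to 31 (median 6) and 0 to 67 (median 11). Cells without Top2a or Ube2c reached the limit through other genes: 32 of 37 and 10 of 13 held Top2a, and 33 and 12 held Ube2c. Cenpf, a kinetochore protein, had medians of 7 and 9 UMIs, and Hmmr, a spindle protein, 6 and 8. Cdk1, the mitotic kinase, had medians of 2 and 4 UMIs and was found in 28 and 12 cells. Birc5 (survivin) and Ccnb1 (cyclin B1) were the sparsest, with medians of 1 and 2 UMIs in saline and 2 and 2 in CDS. As ratios of summed cells, the 8 genes lay between 243-fold (Birc5) and 1817-fold (Hmmr) over resting cells in saline, and between 465-fold (Birc5) and 2536-fold (Cenpf) in CDS.

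A gene was called different when its ratio of proliferating to resting cells, on TMM-scaled CPM of the summed cells, was at least 1.5 or at most its inverse in both libraries. Of 8495 genes with a mean of at least 10 CPM over the 4 sums, 675 were higher in both (7.95%) and 410 lower in both (4.83%). Because the cells were chosen by their own RNA, these shares are the background for the lists below and are no finding. Among the 7914 genes at 10 CPM or more in resting cells, 331 were higher (4.18%) and 410 lower (5.18%). The balance depends on the scaling: plain CPM gave 900 higher and 245 lower, and TMM factors from all genes gave 534 and 715. The median log2 ratio of the genes was -0.03 in saline and -0.01 in CDS. Without the barcodes of 20 or more immune UMIs, 694 were higher and 441 lower, of which 605 and 356 were calls of the full set.

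Genes of mitosis outside the 8 were higher almost throughout. Of 72 mitosis genes in the feature list, 63 passed the level filter and 62 were higher in both libraries, with a median log2 ratio of 7.1 in saline and 7.50 in CDS. Most passed the filter only through the proliferating cells and so had to differ, since 5 of the 63 reached 10 CPM in resting cells. Those 5 were all higher: Smc4, a condensin subunit, by 22.4-fold and 27.8-fold, Cks1b, a CDK-binding subunit, by 10.0-fold and 7.08-fold, Racgap1, a cytokinesis GTPase regulator, by 5.74-fold and 6.22-fold, Spc25, a kinetochore subunit, by 3.46-fold and 4.45-fold, and Ckap5, a microtubule polymerase, by 2.64-fold and 1.92-fold. These 5 were picked by their resting level. Pttg1 (securin), a regulator of sister chromatid separation, was the member that did not pass, at 1.72-fold in saline and 0.940-fold in CDS. The 9 genes under the filter were also at least 1.5-fold higher in both libraries.

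The 10 largest ratios outside the 8 genes at a mean of 20 CPM or more, ranked by the library with the smaller one, ran from Pbk to Ccna2. Pbk, a mitotic kinase, had 82 UMIs in proliferating and 3 in resting saline cells, a ratio of 2248 with an interval of 743 to 11130. In CDS it had 40 and 3 UMIs, a ratio of 2536 (808 to 12820). Both intervals are wide because so few resting UMIs stand under them. Depdc1a, a mitotic regulator, had 47 against 2 UMIs in saline, a ratio of 1933 (506 to 16430). In CDS it had 17 against 0, at least 1078-fold higher with a floor of 3 UMIs over the resting sum. Tpx2, which brings Aurora A to the spindle, was 637-fold higher in saline and 921-fold in CDS. Cenpe, a kinetochore motor, was 547-fold and 939-fold higher, and Plk1, the polo kinase, 510-fold and 628-fold. Nek2, a centrosome kinase, was 603-fold and 476-fold higher. Ckap2l and Ckap2, spindle proteins, were 471-fold and 353-fold higher in saline and 1087-fold and 1160-fold in CDS. Prc1, which bundles the central spindle, was 348-fold and 443-fold higher. Ccna2 (cyclin A2) was 343-fold and 353-fold higher, and lower in the ranking Ccnb2 (cyclin B2) was 74.7-fold and 173-fold and Kif4, a chromosome-bound motor, 240-fold and 1046-fold higher.

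Further genes with large ratios stood in none of the cell cycle lists. Lockd, a long non-coding RNA, was 129-fold and 233-fold higher. Knstrn, a kinetochore protein, was 105-fold and 130-fold higher, and Cit (citron kinase, of cytokinesis) 122-fold and 101-fold. Pclaf, which binds the replication clamp PCNA, was 80.0-fold and 238-fold higher, and Spag5, a spindle protein, 77.9-fold and 199-fold. Neil3, a DNA glycosylase, was 85.4-fold and 59.4-fold higher. Gas2l3 and Cenpm, of the cytoskeleton and the centromere, were 89.3-fold and 51.7-fold higher in saline and 58.7-fold and 59.4-fold in CDS.

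Promoters of cell cycle genes are known to carry short elements. MuvB binds the CHR element TTTGAA, NF-Y binds CCAAT, and E2F factors bind TTTGGCGC or TTTCCCGC. The windows below were chosen to show these elements in mitotic genes that were high in these cells and in Mcm6, of the replicative helicase. Birc5, of the selection genes, is shown as a window with none of them. Each is the 150 bases before the RefSeq transcription start (GRCm38.p6), written 5' to 3' in the direction of the gene. Capitals mark these elements or their reverse complements.
Mki67, chr7:135716380-135716529, minus strand: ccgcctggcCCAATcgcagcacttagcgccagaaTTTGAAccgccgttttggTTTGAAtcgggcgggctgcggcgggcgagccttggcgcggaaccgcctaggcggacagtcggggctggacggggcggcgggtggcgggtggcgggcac
Top2a, chr11:99024190-99024339, minus strand: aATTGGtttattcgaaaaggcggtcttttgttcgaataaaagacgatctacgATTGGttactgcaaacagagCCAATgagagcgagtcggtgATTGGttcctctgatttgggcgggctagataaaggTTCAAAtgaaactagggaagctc
Cdk1, chr10:69352913-69353062, minus strand: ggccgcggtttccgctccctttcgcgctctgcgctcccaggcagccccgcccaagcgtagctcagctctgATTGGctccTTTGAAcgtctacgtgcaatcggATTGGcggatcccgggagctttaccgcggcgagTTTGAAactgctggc
Ube2c, chr2:164769779-164769928, plus strand: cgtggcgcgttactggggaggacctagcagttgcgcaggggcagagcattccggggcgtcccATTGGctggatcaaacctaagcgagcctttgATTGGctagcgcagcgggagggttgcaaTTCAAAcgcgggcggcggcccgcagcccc
Ckap2l, chr2:129297213-129297362, minus strand: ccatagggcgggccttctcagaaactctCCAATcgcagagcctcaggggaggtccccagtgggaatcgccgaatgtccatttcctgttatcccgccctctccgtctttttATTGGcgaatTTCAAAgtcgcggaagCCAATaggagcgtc
Mcm6, chr1:128359706-128359855, minus strand: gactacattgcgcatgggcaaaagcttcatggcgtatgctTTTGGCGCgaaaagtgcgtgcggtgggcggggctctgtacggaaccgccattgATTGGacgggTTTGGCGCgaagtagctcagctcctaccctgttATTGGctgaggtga
Birc5, chr11:117849087-117849236, plus strand: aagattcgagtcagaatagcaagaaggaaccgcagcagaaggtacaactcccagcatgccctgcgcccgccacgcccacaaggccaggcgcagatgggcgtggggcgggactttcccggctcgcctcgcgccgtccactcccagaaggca

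Mki67 carried TTTGAA at bases 116 to 111 and 98 to 93 before the start, with a CCAAT at 141 to 137. Cdk1 carried TTTGAA at bases 71 to 66 and 15 to 10, with CCAAT on the opposite strand at 80 to 76 and 48 to 44. Top2a, Ube2c and Ckap2l each carried 1 TTTGAA within 30 bases of the start (23 to 18, 29 to 24 and 30 to 25), on the opposite strand. Top2a had 4 CCAAT elements in the window, Ckap2l 3 and Ube2c 2. Mcm6 had no TTTGAA there, and carried TTTGGCGC at bases 110 to 103 and 47 to 40. None of these matches overlapped another. Other windows of the same length held less: Ccnb1, Cenpf and Hmmr among the selection genes, and Cenpe, Plk1, Nek2, Prc1, Kif4 and Ccnb2, had CCAAT but no TTTGAA in the 150 bases, and Dbf4 and Brca2 had none of the elements.

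Over the whole 300-base RefSeq window (250 bases before to 50 after the start, both strands), TTTGAA was found in 6 of the 8 selection genes (75%) and in 39 of 58 mitosis genes with a promoter in the table (67.2%). It was found in 11 of 53 replication genes (20.8%), in 13.9% of the 6807 measured genes with a promoter and in 20.2% of all 27025 genes with a promoter. A gene with several windows counted when any of them matched, so such genes had more chances to match. Shares of promoters below are shares of genes in this sense. CCAAT was in 72.4% of mitosis and 62.3% of replication promoters, against 43.1% of measured and 41.1% of all promoters. TTTGAA and CCAAT together were in 55.2% of mitosis, 11.3% of replication and 5.83% of measured promoters. The 2 E2F words showed the other order: 5 of 58 mitosis promoters (8.62%) and 18 of 53 replication promoters (34%) held either, against 3.61% of measured and 1.8% of all promoters. Among the genes higher in both libraries but outside the cell cycle lists, 23.6% of 411 promoters held TTTGAA. Among genes lower in both, 11.6% of 318 did, and among beta cell maturity genes 2 of 22 (9.09%). A match is a description of letters and says nothing of binding in these cells.

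Genes of DNA replication were higher too, by smaller ratios. Of 70 in the feature list, 46 passed the level filter and 42 were higher in both libraries, with a median log2 ratio of 2.56 in saline and 2.84 in CDS. Most of the 46 passed the filter only through the proliferating cells, so their count and median follow in part from the filter. Of the 11 that reached 10 CPM in resting cells, 9 were higher, with a median of 1.22 and 1.17. The other two were Rfc1 (a clamp loader subunit, 1.41-fold and 1.26-fold) and Casp8ap2 (1.47-fold and 1.88-fold), which were named after their values were seen. Mcm3 and Mcm6, of the replicative helicase, were 33.2-fold and 7.23-fold higher in saline and 80.9-fold and 12.7-fold in CDS. Brca1 and Brca2, of recombination repair, were 49.9-fold and 7.86-fold higher in saline and 88.2-fold and 10.4-fold in CDS. Dbf4, which activates the origin kinase, was 16.8-fold and 25.7-fold higher, and Gmnn (geminin), which blocks a second licensing, 11.0-fold and 13.2-fold. Pcna, the sliding clamp, had 0 to 8 UMIs per saline cell (median 1, found in 24) and 0 to 15 per CDS cell (median 1, found in 7). The proliferating and resting cells therefore overlap in this gene. Its sums were 3.69-fold (2.85 to 4.70) and 5.33-fold (3.97 to 7.02) higher.

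Cells differed in how much replication RNA went with the mitotic RNA. Mitosis genes outside the 8 held 1043 to 14040 CPM of a cell's own UMIs in saline (median 4256) and 974 to 16460 in CDS (median 5693), against resting medians of 298 and 252. Replication genes held 132 to 8787 (median 1674) and 231 to 6111 (median 1274), against resting medians of 411 and 369. Replication stood above mitosis in 4 of 37 saline cells and 1 of 13 CDS cells. By contrast, 10 saline and 4 CDS cells had no more replication RNA than the 99th percentile of resting cells. Across the cells, the mitosis level followed the level of the 8 genes (Spearman's rho 0.921 over 37 saline and 0.808 over 13 CDS cells), and the replication level did so little (0.147 and 0.198). The points of these correlations share a library and the depth of each cell, and the 8 genes are themselves mitotic.

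**Figure D2:**
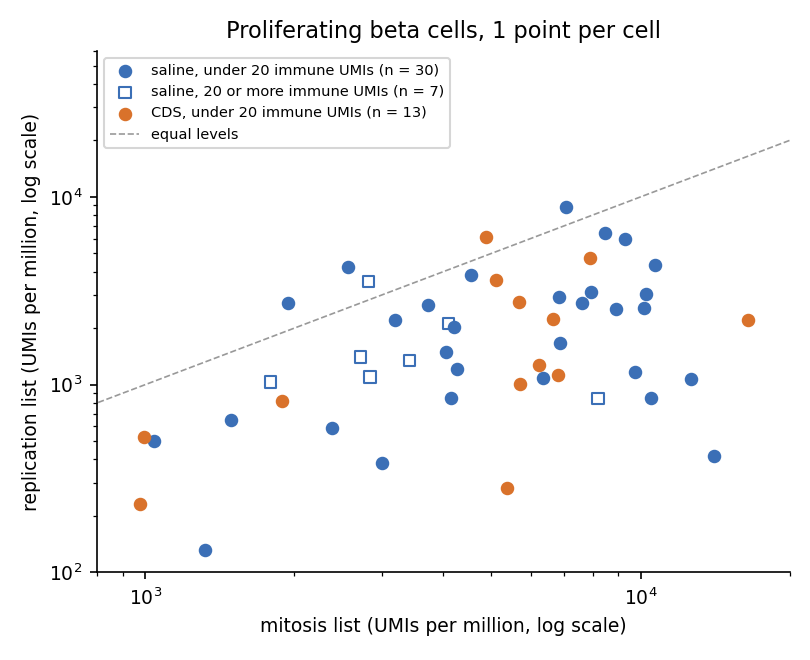
Each point is 1 proliferating beta cell, with its mitosis genes outside the 8 selection genes on the horizontal axis and its replication genes on the vertical axis, both in CPM of the cell on logarithmic axes; open squares mark the 7 saline cells with 20 or more immune UMIs and the dashed line marks equal levels. Cells spread over 974 to 16460 on the mitosis axis and 132 to 8787 on the replication axis, and 5 of them lie above the line.

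Nucleotide synthesis had 20 measured members, of which 5 were higher and 0 lower, against 7.95% and 4.83% of all measured genes. Their median log2 ratios were 0.21 and 0.05. Of the 17 at 10 CPM or more in resting cells, 2 were higher, against 4.18% of all such genes. The members past the limit were those of deoxynucleotide supply and 1 purine enzyme. Rrm2 and Rrm1, of ribonucleotide reductase, were 13.1-fold and 6.36-fold higher in saline and 14.9-fold and 8.14-fold in CDS. Tyms (thymidylate synthase) was 7.48-fold and 11.2-fold higher, Dut (dUTPase) 3.44-fold and 3.52-fold, and Impdh2, of guanine nucleotide synthesis, 2.49-fold and 1.64-fold. Without the cell with most of its 16 CDS UMIs, Impdh2 stood at 1.43 (0.735 to 2.50) in CDS, inside the limit. Cad, which opens pyrimidine synthesis, stood at 0.897 and 0.533 of the resting level, and Shmt2, of mitochondrial one-carbon supply, at 0.985 and 0.454.

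Chromatin and tubulin genes, many of which resting beta cells also express, were higher in 27 of 32 measured members and lower in 0, with median log2 ratios of 1.30 and 1.38. Among the 29 at 10 CPM or more in resting cells, 24 were higher. Stmn1 (stathmin, which destabilises microtubules) had 2 to 46 UMIs per saline cell (median 13) and 1 to 129 per CDS cell (median 26), and every proliferating cell held it. Its resting sums were 2.89 and 2.97 CPM, and its ratios 190-fold (164 to 221) and 306-fold (262 to 358). H2afz, the variant histone H2A.Z, had 7 to 60 UMIs per cell in saline (median 23) and 12 to 204 in CDS (median 56). It was 3.83-fold (3.60 to 4.08) and 4.26-fold (3.99 to 4.55) higher. Hmgb2 and Hmgn2, chromatin-bound high mobility group proteins, were 13.2-fold and 4.66-fold higher in saline and 14.2-fold and 6.87-fold in CDS. Lmnb1 (lamin B1) was 10.7-fold and 5.84-fold higher, and Ezh2, the Polycomb methyltransferase, 5.99-fold and 9.48-fold. H2afx was 6.31-fold and 5.77-fold higher, H1fx 4.45-fold and 6.10-fold, and Tubb4b, a beta tubulin, 4.57-fold and 6.12-fold.

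Histone genes of the clusters gave an uneven picture, with 7 of 12 measured members higher and median log2 ratios of 1.10 and 1.82. Of the 6 at 10 CPM or more in resting cells, 2 were higher. The remaining members passed the level filter only through the proliferating cells, so their calls follow in part from the filter. Their transcripts largely lack poly(A) tails, and the libraries were primed on poly(A). Hist1h1b, a linker histone, was 96.1-fold and 108-fold higher, and 61.1-fold in CDS without the cell with most of its UMIs. Hist1h2ap was 13.9-fold and 17.8-fold higher and Hist1h2ae 13.6-fold and 13.7-fold, but 1 CDS cell held 60.6% and 70.4% of their CDS UMIs. Without the cell with most UMIs the CDS ratios were 8.10 and 4.68. Hist1h1c stood at 0.70 and 0.918 of the resting level.

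The D cyclins were not higher. Ccnd2 (cyclin D2, the main D cyclin of mouse beta cells) had 1 to 21 UMIs per saline cell (median 10) and 1 to 22 per CDS cell (median 8). Its sums were 0.687 (0.620 to 0.759) and 0.573 (0.481 to 0.678) of the resting level, just short of the limit in saline. Ccnd1 stood at 0.602 and 0.384, though 1 CDS cell held 57.9% of its UMIs there. Ccnd3 stood at 0.73 and 0.52. Cdk4, their kinase, was 1.57-fold (1.24 to 1.96) and 1.55-fold (1.17 to 2.02) higher. Without the CDS cell with 30.9% of its UMIs the CDS ratio was 1.16 (0.823 to 1.60), inside the limit. Rbl1 (p107) was 3.98-fold and 4.91-fold higher. Of 12 measured G1 genes, 2 were higher and 1 lower, with median log2 ratios of 0.09 and -0.04. Of 3 genes under the level filter, Cdk2 and Skp2 were at least 1.5-fold higher in both libraries, on 1 to 13 UMIs each.

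Among the factors that drive the programme, 8 of 14 measured were higher and 0 lower, with median log2 ratios of 0.95 and 1.5. Of the 8 at 10 CPM or more in resting cells, 2 were higher, against 4.18% of all such genes. The rest passed the level filter only through the proliferating cells, so their calls follow in part from the filter. Foxm1 had 25 UMIs in proliferating and 20 in resting saline cells, and 7 and 16 in CDS, ratios of 103 and 83.2. Mybl1 (A-Myb) was 25-fold and 29.4-fold higher, but 1 CDS cell held 73.9% of its UMIs, and the CDS ratio was 8.86 without it. The MuvB subunits Lin9 and Lin54 were 9.68-fold and 2.19-fold higher in saline and 11.0-fold and 4.08-fold in CDS. E2f1, an activator, was 4.06-fold and 7.28-fold higher, and E2f7, a repressor, 5.17-fold and 7.55-fold. Tfdp1, a partner of E2f1, was 2.19-fold and 1.83-fold higher.

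Of 20 measured inhibitors of the cycle and p53 targets, 11 were higher and 0 lower. Median log2 ratios were 0.77 in saline and 1.42 in CDS. Of the 14 at 10 CPM or more in resting cells, 5 were higher, against 4.18% of all such genes. The other members passed the level filter only through the proliferating cells, so their calls follow in part from the filter. Cdkn3, a phosphatase that acts on CDKs at mitosis, was 136-fold and 144-fold higher. The INK4 inhibitors Cdkn2c (p18) and Cdkn2d (p19) were 11.7-fold and 8.07-fold higher in saline and 8.63-fold and 12-fold in CDS. Cdkn2a, the INK4a/ARF locus, was 8.29-fold and 17.0-fold higher, and Cdkn1b (p27) stood at 1.51-fold and 1.96-fold.

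Cdkn1a (p21) varied widely between the cells. It had 0 to 41 UMIs per saline cell (median 4, found in 34) and 0 to 468 per CDS cell (median 12, found in 11). All but 1 CDS cell lay far under the highest value. Its sums were 2.58-fold (2.29 to 2.89) and 7.1-fold (6.57 to 7.66) higher. Without the cell with most Cdkn1a UMIs in each library they were 2.28-fold and 2.62-fold (2.28 to 2.99). The same CDS cell held 80 of the Phlda3 UMIs (73.4%), 27 of Bbc3 (81.8%), 51 of Mdm2 (65.4%) and 159 of Jun (67.1%), and its sum over the 8 cycle genes was 118. Phlda3, a p53 target that restrains Akt, was 5.52-fold and 40.6-fold higher, and 3.75-fold and 12.5-fold without the top cell of each library. Ccng1 (cyclin G1, a p53 target) was 2.19-fold and 5.18-fold higher, and 2.13-fold and 3.44-fold without the top cell. Bbc3 (PUMA, which promotes cell death) was 1.95-fold (0.926 to 3.61) and 11.6-fold, and 0.793-fold and 2.43-fold without the top cell. Mdm2, the p53 ubiquitin ligase, was 1.46-fold and 3.75-fold, and 1.31-fold and 1.5-fold without it.

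**Figure D3:**
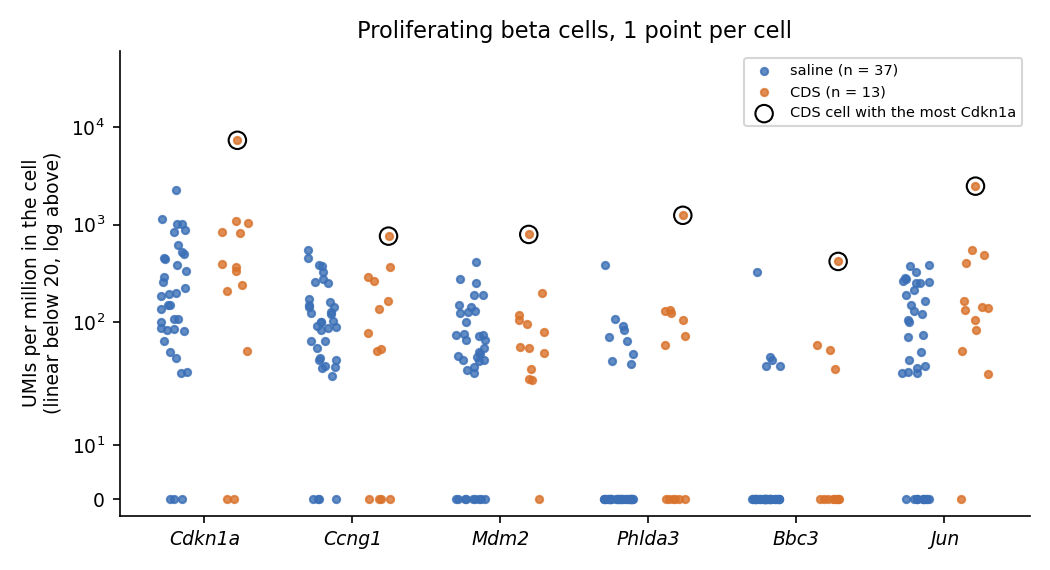
Level in CPM of each proliferating beta cell (vertical axis, linear below 20 and logarithmic above) for 6 genes in the saline and CDS libraries (horizontal axis), with 1 point per cell and a ring around the CDS cell with the most Cdkn1a. The ringed cell holds 468 Cdkn1a UMIs and lies at or near the top of the CDS cells in Phlda3, Bbc3, Mdm2 and Jun too.

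Most beta cell transcription factors stayed inside the limit, and 9 genes of the mature cell were lower. Of 26 measured beta cell factors, 0 were higher and 1 was lower, and at 10 CPM or more in resting cells their median log2 ratio was -0.26 in saline and 0.09 in CDS. Mafa, the factor of mature beta cells, was that one. It had 0 to 23 UMIs per saline cell (median 2, found in 30) and 0 to 6 per CDS cell (median 1, found in 10). Its sums were 0.587 (0.481 to 0.710) and 0.356 (0.230 to 0.526) of the resting level. In saline the ratio was 0.445 without the barcodes of 20 or more immune UMIs, and 0.761, inside the limit, against resting cells within the UMI quartiles of the proliferating ones. After thinning, 35.1% and 15.4% of proliferating cells held a Mafa UMI, against 46.6% and 37.2% of resting cells. Pdx1 stood at 0.976 (0.750 to 1.25) and 1.02 (0.704 to 1.44) and Nkx6-1 at 0.834 and 0.869. Both are markers of the beta cell and were named on that ground.

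Of 33 measured genes of beta cell maturity and secretion, 9 were lower and 2 higher, with a median log2 ratio of -0.57 in saline and -0.52 in CDS. The count of lower ones ran from 4 with plain CPM to 15 with TMM factors from all genes, and was 6 without the CDS cell highest in Cdkn1a. Glp1r, the incretin receptor, had 0 to 8 UMIs per saline cell and 0 to 9 per CDS cell, with a median of 2 in both. Its sums were 0.479 (0.389 to 0.583) and 0.372 (0.249 to 0.535) of the resting level. Ucn3, a peptide of mature beta cells, had 0 to 7 UMIs (median 1, found in 25) and 0 to 6 (median 1, found in 12), so it was missing from only 1 CDS cell. It stood at 0.521 (0.377 to 0.703) and 0.669 (0.396 to 1.06), and the CDS value did not reach the limit. Ero1lb, an oxidase for insulin folding, stood at 0.474 and 0.559, and Slc2a2, the glucose transporter GLUT2, at 0.522 and 0.644. The channel subunit Kcnj11 stood at 0.572 and 0.508 and the vesicle protein Vamp2 at 0.560 and 0.616. The synaptotagmins Syt13 and Syt4 stood at 0.622 and 0.666 in saline and 0.462 and 0.469 in CDS, and the receptor Gpr27 at 0.594 and 0.415. The members that were higher were Nnat (neuronatin, an endoplasmic reticulum protein) at 5.07-fold and 10.3-fold and Dapl1 at 1.78-fold and 2.42-fold. Ins1 and Ins2, whose share the selection used, stood at 0.831 and 0.796 in saline and 0.647 and 0.728 in CDS.

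Genes of the secretory granule were lower in 3 of 15 measured members, with median log2 ratios of -0.21 and -0.37. Pam, the amidating enzyme, stood at 0.548 and 0.511, and Scg5, a chaperone of the convertase PC2, at 0.629 and 0.411 (0.675 in saline with plain CPM, inside the limit). Sst, the third, is a delta cell hormone that the selection capped, so its value follows in part from the choice of cells. It stood at 0.418 and 0.443, and at 0.240 in CDS without 1 cell that held 52.1% of its UMIs. Pcsk2, the convertase itself, stood at 0.691 and 0.546, and Chga (chromogranin A) at 0.746 and 0.583. Iapp, the co-secreted amyloid peptide, stood at 0.998 and 0.870 and was named as a beta cell marker.

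**Figure D4:**
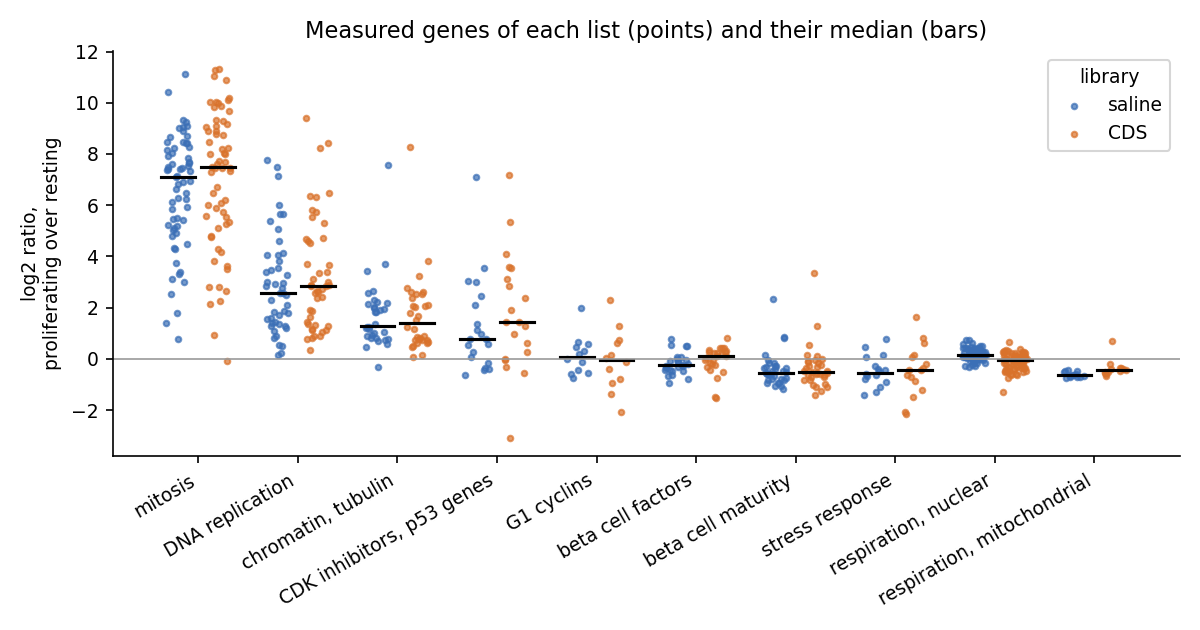
Log2 ratio of proliferating to resting beta cells (vertical axis) for each measured gene of several gene lists (horizontal axis), with a point per gene and library and a black bar at each median. The mitosis list centres at 7.1 and 7.50 and the replication list at 2.56 and 2.84, while the maturity list centres at -0.57 and -0.52; Kif18b and Bach2, with 0 UMIs in CDS resting and CDS proliferating cells in turn, are not drawn for CDS.

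Few metabolic genes passed the limit. None of 68 nuclear genes of oxidative phosphorylation passed the limit, with median log2 ratios of 0.17 and -0.05. Of 13 mitochondrially encoded genes, 2 were lower, with medians of -0.65 and -0.42. These were mt-Nd5, of complex I, at 0.605 and 0.659 and mt-Cytb, of complex III, at 0.635 and 0.632. The count was 0 with plain CPM and also without the CDS cell highest in Cdkn1a. Of 16 measured glycolysis genes 1 was higher, Ldha (lactate dehydrogenase A), which mature beta cells normally repress. It was 3.74-fold (2.92 to 4.74) and 2.05-fold (1.43 to 2.86) higher, and 1.88-fold in saline without the barcodes of 20 or more immune UMIs.

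Among the stress lists, most of the lower calls lay in the integrated stress response. All measured members of these lists reached 10 CPM in resting cells, where 4.18% of all genes were higher and 5.18% lower. The few calls in the other stress lists are given as values only. Of 16 genes of the integrated stress response 5 were lower and 0 higher, with medians of -0.54 and -0.44. Chac1, which degrades glutathione, stood at 0.373 and 0.225, and Aldh1l2, a folate enzyme, at 0.466 and 0.236. Nupr1, a stress-induced nuclear protein, had 0 to 81 UMIs per saline cell (median 6) and 1 to 40 per CDS cell (median 12), and stood at 0.571 and 0.357. Asns (asparagine synthetase) stood at 0.637 and 0.545. Ddit3 (CHOP, a factor of stressed cells) went opposite ways, at 0.530 (0.357 to 0.757) in saline and 1.76-fold (1.37 to 2.23) in CDS. One CDS cell held 36.2% of its UMIs, and without it the CDS ratio was 1.22 (0.887 to 1.64), inside the limit. Of 22 genes of the unfolded protein response 1 was higher, the chaperone Hsp90b1 at 1.89-fold and 1.58-fold. Without the cell with most of its UMIs in each library it stood at 1.56-fold and 1.29-fold (1.18 to 1.41), so the call rests on 1 CDS cell. In saline it stood at 1.53-fold without the barcodes of 20 or more immune UMIs. In the same list 2 were lower, Dnajb9 at 0.649 and 0.512 (0.697 in saline with plain CPM, inside the limit) and the sensor Ern1 (IRE1) at 0.650 and 0.481. Ern1 stood at 0.695 in saline, inside the limit, without the barcodes of 20 or more immune UMIs. Hspa5 (BiP), the list's defining chaperone, stood at 1.13 and 0.946. Of 14 measured immediate early genes, 1 was lower, the nuclear receptor Nr4a2 at 0.486 and 0.584. Fos stood at 1.0 and 0.72 of the resting level, and Jun at 1.05 and 4.44, or 0.968 and 1.69 without the cell with most Jun UMIs. Of 18 measured cholesterol and fatty acid genes 4 were lower, with medians of -0.37 and -0.38. Among them were Msmo1, a sterol oxidase, at 0.519 and 0.471 (0.302 in CDS without the cell with most of its UMIs), Acaca, of malonyl-CoA synthesis, at 0.501 and 0.622, and Acly, of acetyl-CoA supply, at 0.607 and 0.472. Acaca stood at 0.718 in CDS with plain CPM and at 0.669 without the CDS cell highest in Cdkn1a, both inside the limit.

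Growth signalling had 25 measured members in the mitogen list, of which 1 was higher and 3 were lower. All 25 reached 10 CPM in resting cells, where 4.18% of all genes were higher and 5.18% lower. Their median log2 ratios were 0.04 and -0.02. Igf1r, the IGF-1 receptor, stood at 0.472 (0.396 to 0.557) and 0.400 (0.298 to 0.526), Egfr at 0.555 and 0.361 and the kinase Akt1 at 0.609 and 0.459. Without the CDS cell with most of their UMIs, Igf1r stood at 0.254 and Akt1 at 0.262 in CDS. Met, the receptor of hepatocyte growth factor, was 1.62-fold and 1.66-fold higher, on 30 and 10 UMIs. Without the cell with most Met UMIs in each library it stood at 1.45 (0.942 to 2.13) and 1.34 (0.538 to 2.77), inside the limit in both. Prlr, the prolactin receptor, stood at 0.671 and 0.694.

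Adra2a, the alpha2A-adrenergic receptor that the series title names, signals through Gi to lower cyclic AMP and insulin release. It had 0 to 9 UMIs per proliferating cell in saline (median 1, found in 23) and 0 to 4 in CDS (median 1, found in 7). Its sums were 34.5 CPM in proliferating and 30.8 CPM in resting saline cells, a ratio of 1.12 (0.789 to 1.55). In CDS they were 31.6 and 34.1 CPM, a ratio of 0.928 (0.519 to 1.53). Each interval includes 1, so a difference was not detectable at this depth. Between the treatments it stood at 0.916 (0.467 to 1.71) in proliferating and 1.11 (1.05 to 1.17) in resting cells. The 13 measured genes of this pathway had median log2 ratios of -0.08 and -0.15. None was higher and 1 was lower, the G protein subunit Gnai1 at 0.585 and 0.462, and none without the barcodes of 20 or more immune UMIs. Rgs4, which ends G protein signals, stood at 0.369 and 0.778, and the adenylate cyclase Adcy6 at 1.13 and 1.52.

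Among ranked genes at a mean of 20 CPM or more, the lowest ratios included the following. The ranking took the library with the smaller change. It left out mitochondrially encoded, ribosomal protein, a few sex-linked and listed other-cell marker genes. Several of these lowest ratios rest on few CDS UMIs, and leaving out 1 cell moves them. Nrcam, a cell adhesion protein, stood at 0.287 and 0.129, with its 3 CDS UMIs in 1 cell. Sgcz, of the sarcoglycan complex, stood at 0.337 and 0.169. Dlg2, a synaptic scaffold, stood at 0.276 and 0.244, with 67.9% of its CDS UMIs in 1 cell and a CDS ratio of 0.0885 without it. Nr3c2, the mineralocorticoid receptor, stood at 0.269 and 0.353, and Kcnh1, a potassium channel, at 0.350 and 0.352, the latter on 4 UMIs and 0.199 without the top cell. Syn2 (synapsin 2, a vesicle protein) stood at 0.384 and 0.274. Try5 (a trypsin of the exocrine pancreas) stood at 0.344 and 0.317, the latter on 6 UMIs and 0.114 without the top cell.

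Levels in bins of the 8-gene sum showed which genes followed it. In saline, mitosis genes outside the 8 held 313 CPM at a sum of 0 to 1, 456 at 2 to 3, 767 at 4 to 7, 2094 at 8 to 15 and 6059 at 16 or more. In CDS the same bins held 263, 263, 1056, 985 and 6218 CPM. The bins from 4 to 15 are thin, with 8 and 5 saline cells and 3 and 2 CDS cells, and the CDS bins of 2 to 3 and of 16 or more held 14 and 11 cells. Leaving the bins from 4 to 15 out, the mitosis level stood at 313 and 456 CPM in the lower saline bins and 6059 in the upper. Stmn1 held 3.0, 40.8, 153, 451 and 633 CPM in saline, so cells below the limit already held more than resting cells. In CDS it held 2.58, 2.21, 722, 130 and 1061 CPM. Replication held 430, 782, 1278, 2179 and 2051 CPM in saline, and the value of 4 to 7 was 645 without 1 barcode with immune RNA. In CDS it held 373, 447, 778, 376 and 2616 CPM. Mafa held 176 CPM in saline resting cells, 94.5 at 2 to 3 and 117 at 16 or more, and in CDS 128, 159 and 50.4 CPM.

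**Figure D5:**
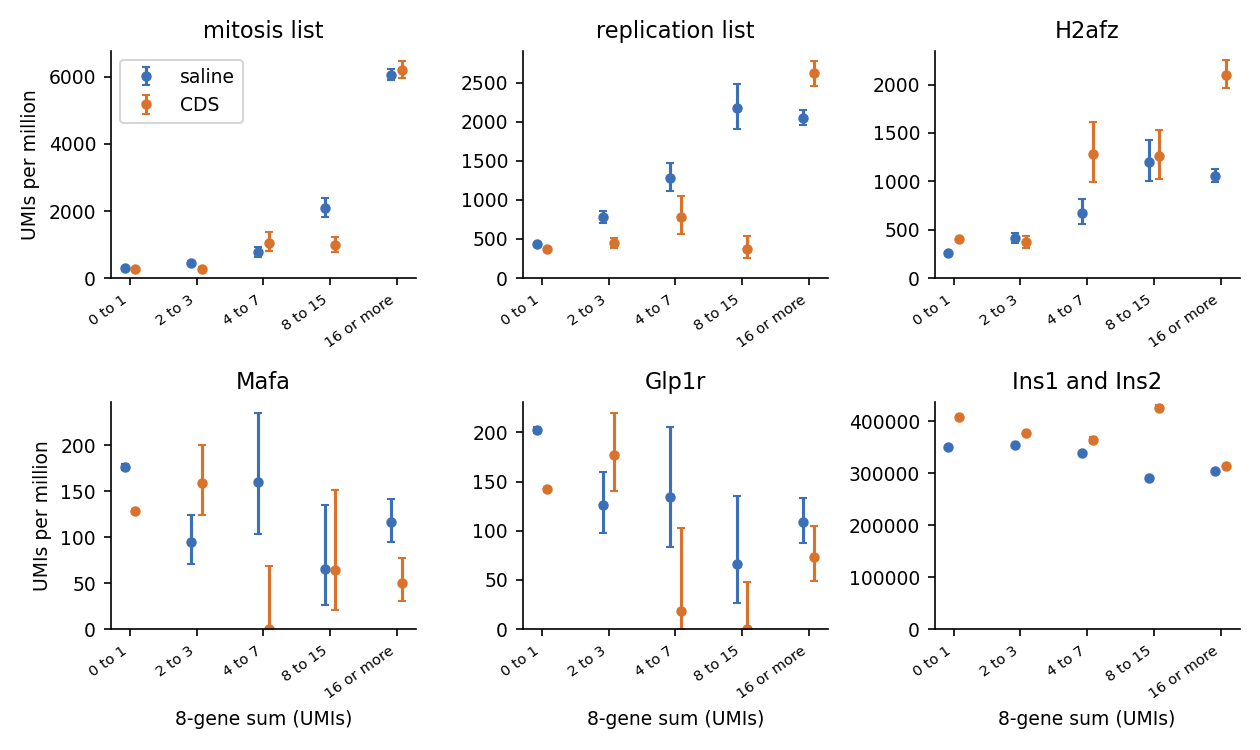
Level in CPM over the cells of a bin (vertical axes, from 0) of 2 gene lists, H2afz, Mafa, Glp1r and the insulin genes, in bins of the 8-gene sum (horizontal axes), with 1 point per bin and library and bars for the exact 95% Poisson interval. The mitosis list reaches 6059 and 6218 in the highest bin from 313 and 263 in resting cells, and the bins from 4 to 15 rest on 2 to 8 cells each.

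Set against saline, the 13 CDS proliferating cells held 5.09 times the Cdkn1a level, mostly in 1 cell. This compares 1 library with 1 library, so the values below describe these cells and not the treatments. At the limit of 1.5-fold, 1526 of the 8495 genes were higher in CDS (18.0%) and 1574 lower (18.5%), against 942 (11.1%) and 895 (10.5%) between resting cells. Levels of the selection genes follow in part from the choice of cells and are given as values only. The limit on their sum was a fixed count of UMIs, while CDS proliferating cells were deeper (median 37704 UMIs, against 24082 in saline). The same limit therefore asked for a smaller share of the UMIs of the median CDS cell. The part of depth in these ratios was not tested. Mki67 stood at 0.528 (0.421 to 0.657) of the saline level, Cenpf at 0.699 (0.565 to 0.860) and Top2a at 0.840 (0.716 to 0.982). Ube2c stood at 1.44 (1.20 to 1.72), Birc5 at 1.40 (0.939 to 2.07), Cdk1 at 1.27 (0.929 to 1.73), Ccnb1 at 1.11 (0.752 to 1.60) and Hmmr at 1.06 (0.841 to 1.33). The last 4 intervals include 1. The mitosis list as a whole had a median log2 difference of -0.01, and the replication list of 0.13.

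Relative to the difference between resting cells, the 5 highest ratios in CDS among genes with a mean of at least 50 CPM were those of Phlda3, Asic2, Jun, Ppargc1a and Klf10. Cdkn1a stood at 5.09 (4.44 to 5.84), against 1.85 between resting cells, and at 1.89 against 1.87 without the CDS cell that held most of it. Phlda3 stood at 11.7 against 1.60, and at 3.63 against 1.61 without that cell. Jun, an immediate early factor, stood at 5.25 against 1.24, and at 2.01 against 1.25 without it. Klf10, a TGF-beta responsive factor, stood at 4.01 against 1.10, and at 1.02 without that cell. Ppargc1a, a coactivator of mitochondrial genes, stood at 2.32 against 0.629, and Asic2, an ion channel with 81.6% of its CDS UMIs in 1 cell, at 2.99 against 0.578. Without the cell highest in Ppargc1a, its CDS ratio over resting cells was 0.721 in place of 1.53, and without the cell highest in Asic2 that of Asic2 was 0.658 in place of 3.17.

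The 5 lowest at that level were those of Apoe, Cd74, Ighm, Igkc and Gadd45b, the first 4 of which macrophages or B cells are known to express. Apoe, an apolipoprotein, stood at 0.0632 against 2.26 between resting cells, Cd74 (of antigen presentation) at 0.0505 against 1.18, Ighm at 0.00218 against 0.0422 and Igkc (both immunoglobulin genes) at 0.00577 against 0.0390. Their saline level lay in the barcodes with immune RNA. Without barcodes of 20 or more immune UMIs, saline proliferating cells held 4.75 CPM of Apoe in place of 300.5, and the ratio of CDS to saline was 4.0. That ratio rests on few UMIs and carries no interval here: 6 of 13 CDS cells held Apoe, with at most 2 UMIs each. Gadd45b, a growth arrest gene, stood at 0.527 against 1.89, with 104 of its saline UMIs (78.2%) in 1 cell. Beta cell genes follow as values. Mafa was at 0.528 (0.327 to 0.822) against 0.870, Ucn3 at 0.946 against 0.737, Ins1 at 1.16 against 1.49 and Ins2 at 1.24 against 1.36. H2afz was at 2.04 against 1.83 and Pcna at 1.73 against 1.20.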

How the data were processed

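Raw UMI counts per gene and barcode were used as deposited, 1 matrix per library; per the file headers and the submitters' processing notes the authors made them with Cell Ranger 7.1 against mm10. The notes also name Seurat 4 and edgeR, and the use of intron reads is not given in the sources used here. Cell selection is described above. Scrublet (scanpy 1.11.5; barcodes of at least 1000 UMIs, expected 0.8% per 1000 barcodes) called 614 of 11591 saline and 256 of 6415 CDS barcodes doublets. These were kept, and left out only in an alternative.

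UMIs were summed over the proliferating and the resting cells of each library. CPM of the 4 sums were scaled with TMM factors (edgeR 4.0.16, R 4.3.3) from genes with a mean of at least 10 CPM. Ratios carry exact conditional Poisson 95% intervals and shares Clopper-Pearson intervals, which take in counting error alone. A cell is no replicate of a treatment, and with 1 library per group no test between treatments was run. Per-cell and per-bin CPM were not scaled. Thinning drew 5000 UMIs per cell. Positions and promoter windows come from RefSeq (GRCm38.p6), the assembly that mm10 is built on. The ratio code was tested on simulated counts. Other tools were Python 3.11.15, numpy 2.4.6, scipy 1.17.1, pandas 2.3.3, matplotlib 3.10.9 and DESeq2 1.42.0 (size factors only).

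The cells and gene lists were chosen with earlier results of these data known. Genes were named by a rule: the 8 selection genes; the 10 largest ratios outside them, the 10 largest outside the cell cycle lists and the 10 lowest, each ranked by the library with the smaller change, at a mean of 20 CPM or more; up to 4 members per list (8 for cycle lists) with the largest change, and each list's first gene; the 5 highest and 5 lowest CDS to saline ratios relative to resting cells at 50 CPM or more; and Adra2a, Ins1, Ins2, Ucn3 and Mafa. Mitochondrially encoded and ribosomal protein genes, a few sex-linked genes and the genes on the marker lists of other cell types were left out of the rankings; Try5, Apoe, Cd74, Ighm and Igkc are on none of these lists. Asns, Bach2, Casp8ap2, Cdk2, Cdkn1b, Cdkn2a, Ckap5, Cks1b, E2f1, E2f7, Foxm1, Gnai1, Gpr27, Iapp, Kcnj11, Kif18b, Lin9, Nkx6-1, Pdx1, Pttg1, Racgap1, Rbl1, Rfc1, Rrm2, Skp2, Slc2a2, Smc4, Spc25, Syt13, Syt4 and Vamp2 fell outside the rule and were named after their values were seen. Alternatives that leave out barcodes of 20 or more immune UMIs or single cells, and TMM factors from all genes, were chosen after seeing the data. A few genes that this rule names are not reported here.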

Additional observations from a re-analysis of the deposited data

Results flagged for a closer look

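In 4 named genes the ratio of proliferating to resting beta cells lay past 1.5-fold in opposite directions in the 2 libraries, with each counting interval on 1 side of 1. The difference was not tested. Ddit3 (CHOP, a stress-response factor) stood at 0.53 in saline and 1.76 in CDS. Without 1 CDS cell that held 36.2% of its UMIs, the CDS value was 1.22 (0.887 to 1.64). Asic2, an ion channel, stood at 0.612 and 3.17, with 81.6% of its CDS proliferating UMIs in 1 cell. Without that cell its CDS value was 0.658 (0.301 to 1.25). Ppargc1a, a coactivator, stood at 0.414 and 1.53. One CDS cell held 56.8% of the Ppargc1a UMIs there, and without it the CDS value was 0.721 (0.412 to 1.17). Apoe, an apolipoprotein that macrophages express, stood at 8.43 and 0.236, and at 0.169 in saline without barcodes of 20 or more immune UMIs. Cd74, of antigen presentation, also stood past the limit in opposite directions, at 11.7 in saline and 0.502 in CDS, but its CDS interval (0.137 to 1.29) includes 1.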

How the results depend on the processing

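No paired analysis was possible because each group has 1 library. Of the results on single genes and lists, 4943 kept their direction and side of the limit under an alternative, 290 moved, 24 passed the limit anew, 67 no longer passed it and 22 changed direction. Of the shares and gene counts, 73 stayed close and 15 moved. The saline share was 0.392% with cells thinned and a sum of at least 8. Genes higher and lower in both libraries numbered 1459 and 707 with no minimum level, 143 and 123 at 50 CPM or more, and 404 and 80 at a fold of 2, where fewer or more genes could pass by construction. Those lower in both numbered 245 with plain CPM and 715 with TMM factors from all genes. Plain CPM moved the median log2 ratio of proliferating to resting cells by 0.10 in saline and 0.21 in CDS, and factors from all genes by -0.08 and -0.27. The genes at least 1.5-fold higher in CDS than saline proliferating cells numbered 3096 with no minimum level and 384 at 50 CPM or more, and those 2-fold higher 558. The genes at least 1.5-fold lower in CDS than saline proliferating cells numbered 2430 and 366, and those 2-fold lower 648.

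The following ratios of proliferating to resting cells changed direction. With a sum of at least 12, saline Bbc3 was 0.836, saline Gadd45b 0.912 and CDS Ppargc1a 0.712. Without the gene's highest cell, saline Bbc3 was 0.793, saline Gadd45b 0.964, CDS Asic2 0.658, CDS Ppargc1a 0.721, CDS Klf10 0.772 and CDS Ighm 0. CDS Klf10 was 0.773 without the cell highest in Cdkn1a. Without barcodes of 3 or more immune UMIs, saline values were 0.184 for Apoe, 0.862 for Cd74, 0.932 for Ighm and 0.601 for Igkc, and CDS values 0.779 for Klf10 and 2.10 for Cd74. Without those of 20 or more, saline values were 0.169 for Apoe, 0.420 for Cd74, 0.644 for Ighm and 0.616 for Igkc, and the CDS value of Cd74 was 1.72. As a mean over cells, CDS Cd74 was 1.10. Apart from what leaving out cells shows by itself, the cause was not tested. The 13 CDS cells, with 37704 UMIs in the median cell, limit the precision of every CDS value.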
